A study of Mus musculus with 50 samples.

Results

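Transmitter release in the NAc was described through 76 genes of synaptic vesicles and exocytosis, of 24552 genes listed in the count table. They were all the symbols that name synaptotagmins (*Syt*), syntaxins (*Stx*), syntaxin-binding proteins (*Stxbp*), *Vamp* genes, numbered *Snap* genes, synapsins (*Syn1*, *Syn2*, *Syn3*), *Syp*, *Sv2a*, *Sv2b*, *Sv2c*, complexins (*Cplx*), *Rims* genes, *Unc13a*, *Unc13b*, *Unc13c*, *Rab3a* to *Rab3d*, *Bsn* and *Pclo*. The symbol alone chose them, so some act outside the synapse, such as *Stx17* of autophagosomes and *Snap91*, which encodes the clathrin assembly protein AP180.

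RNA was sequenced from ribosomes of one class of medium spiny neuron (MSN), and from whole tissue, of C57BL/6 mice. In RiboTag (RT) mice, Cre switches on a ribosomal protein that carries an HA tag, and precipitation with an HA antibody (IP) recovers the mRNA on those ribosomes, whereas the input is RNA of the homogenate from all cells. The D1 IPs came from RT; D1-Cre mice (4 Con, 4 Res and 5 Sus), the D2 IPs from RT; D2-Cre mice (5 per group) and the inputs from both lines (3 libraries per group and line), at 8 to 12 weeks of age. Con mice were not defeated, whereas Sus and Res mice went through chronic social defeat, with bouts of 10 min repeated daily over at most 10 days by the labels, and were then sorted by a social interaction test. The study's methods give a shorter daily bout. A further 4 IP libraries, labelled Sirt1-KO, came from undefeated male RT; Sirt1-floxed; D1-Cre mice, whose age was not given, and were compared with the 4 D1 Con IPs. All 50 libraries pooled NAc tissue of 2 mice each, and all groups carry the RT allele. The Cre drivers are BAC transgenes that follow the *Drd1* or *Drd2* gene and mark every cell in which that promoter is active, and cholinergic interneurons of the striatum also use *Drd2*. Each IP is a separate pool of mice, so the spread between libraries includes that between animals. The inputs were supernatant kept from such homogenates, so an input and an IP can share mice, and whether the same number marks the same pool was not stated.

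Release of transmitter rests on SNARE proteins: a VAMP on the vesicle pairs with a syntaxin and a SNAP-25 protein on the plasma membrane, and the paired helices pull the membranes together. Munc18 (Stxbp) and Munc13 (Unc13) proteins guide that assembly, complexins clamp it, and a synaptotagmin releases the clamp when calcium enters. RIM, Bassoon and Piccolo organise the active zone where vesicles dock, synapsins hold the reserve pool, and Rab3 GTPases and the membrane proteins SV2 and synaptophysin mark the vesicle itself. MSNs are GABAergic projection neurons, and most of their mRNA lies in the soma and dendrites that NAc tissue contains, while their own terminals lie partly in other nuclei.

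Depth was 21591075 to 31009626 counts on genes in the 28 IPs, 22174187 to 31785984 in the libraries labelled Sirt1-KO and 18384265 to 28179940 in the 18 inputs. Levels are given as CPM, counts per 1000000 counts of the library after TMM scaling. *Drd1* ran from 284 to 410.0 CPM in the D1 IPs and from 111 to 177 in the D2 IPs, and *Drd2* from 78.5 to 126 and from 304 to 392 CPM, so each line held the marker of the other at a lower level. Both IPs also held other cells' markers at unequal levels. A set of 6 markers of glutamatergic neurons, among them *Slc17a7*, *Slc17a6*, *Neurod6*, *Neurod2* and *Tbr1*, is called the cortical markers here, though *Slc17a6* is not particular to cortex. They summed to 412 to 1412 CPM (median 769) in the D1 IPs and 46.8 to 324 CPM (median 208) in the D2 IPs. In the inputs they summed to 117 to 1116 CPM (median 521). In the libraries labelled Sirt1-KO they summed to 891 to 1680.2 CPM (median 1447), and none of the 6 was at 0. The 6 cholinergic markers, among them *Chat*, *Slc18a3*, *Slc5a7*, *Lhx8* and *Tacr1*, ran the other way, at 17.1 to 45.3 CPM (median 21.6) in the D1 IPs and 91.3 to 178 CPM (median 126) in the D2 IPs, again with none at 0. In these bulk libraries fewer cells of a type and less RNA per cell cannot be told apart.

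RefSeq promoters (GRCm38.p6) matched 59 of the 76 members by symbol, with 75 start sites, and the 250 bases before each start were searched on both strands. A GC box (GGGCGG) stood in 61.3% of these windows, against 32.7% of all 32851 promoters of the same length. The E-box CACGTG stood in 12% against 6.02%, the palindromic NRF1 motif in 4% against 0.782% (*Bsn*, *Stx12* and *Stxbp5*), the cAMP response element TGACGTCA in 2.67% against 1.55% (*Syn1* and *Stxbp3*), and the TATA letters TATAAA in 6.67% against 12.4%. The RE1 core, the element of the repressor REST, stood in 0 member windows and in 0.0335% of all. These are matches of letters and not measured binding. Shown here are windows of members at the ends of the comparison of D1 IPs with D2 IPs that have a single listed start. *Stx1a* (chr5:135023232-135023481 on the plus strand) and *Cplx3* (chr9:57606282-57606531 on the minus strand), higher in the D1 IPs, are the first. The others are *Sv2c* (chr13:96132578-96132827 on the minus strand) and *Rab3b* (chr4:108878820-108879069 on the plus strand), higher in the D2 IPs. Each window is written 5′ to 3′ towards the start, and capitals mark the motifs found. These are 1 GC box in *Stx1a*, 2 E-boxes, a palindrome counted once, in *Cplx3*, 2 GC boxes in *Sv2c*, and 4 GC boxes, of which 2 overlap, and 1 TATA in *Rab3b*. GC boxes on the opposite strand read CCGCCC.
Stx1a: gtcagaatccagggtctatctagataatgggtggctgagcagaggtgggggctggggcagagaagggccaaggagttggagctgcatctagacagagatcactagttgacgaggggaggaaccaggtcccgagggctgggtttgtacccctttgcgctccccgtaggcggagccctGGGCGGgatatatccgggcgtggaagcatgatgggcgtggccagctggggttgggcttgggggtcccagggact
Cplx3: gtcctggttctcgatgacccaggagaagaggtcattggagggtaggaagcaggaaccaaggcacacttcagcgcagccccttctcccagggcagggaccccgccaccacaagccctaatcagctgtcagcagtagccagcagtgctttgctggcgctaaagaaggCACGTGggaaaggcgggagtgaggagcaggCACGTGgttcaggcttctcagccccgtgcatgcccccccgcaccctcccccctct
Sv2c: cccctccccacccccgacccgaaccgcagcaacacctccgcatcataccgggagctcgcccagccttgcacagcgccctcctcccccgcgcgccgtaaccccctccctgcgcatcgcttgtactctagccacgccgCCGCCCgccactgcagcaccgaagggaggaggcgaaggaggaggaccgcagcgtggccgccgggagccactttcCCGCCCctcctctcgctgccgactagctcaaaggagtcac
Rab3b: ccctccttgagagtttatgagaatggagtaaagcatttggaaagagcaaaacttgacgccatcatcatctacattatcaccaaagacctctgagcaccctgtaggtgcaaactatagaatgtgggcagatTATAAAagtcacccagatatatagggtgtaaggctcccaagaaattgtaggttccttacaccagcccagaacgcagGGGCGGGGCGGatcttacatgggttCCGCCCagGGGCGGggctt

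The highest members were vesicle genes, SNARE genes and complexins. Per kilobase of exon (GENCODE vM21), *Cplx2*, a complexin, led in each class, with a level of 618 ± 33.2 CPM per kb (SD, n = 13) in the D1 IPs, 626 ± 40.8 (SD, n = 15) in the D2 IPs and 304 ± 18.3 (SD, n = 18) in the inputs. *Syp*, the vesicle protein synaptophysin, came next in the IPs, with 338 ± 21.8 CPM per kb in the D1 and 269 ± 15.6 in the D2 IPs. *Snap25* (305 ± 28.3 in the D1 IPs), the small GTPase gene *Rab3a* (297 ± 11.1) and *Vamp2* (283 ± 15.5), the vesicle SNARE, followed within about 1 SD of their neighbours. In the inputs the order after *Cplx2* was *Vamp2* (212 ± 17.4 CPM per kb), *Cplx1* (204 ± 12.98), *Snap25* (166 ± 18.8) and *Syp* (161 ± 14.6), where *Vamp2* and *Cplx1*, and *Snap25* and *Syp*, lay within 1 SD of each other. At the other end, *Stx19* had 0 counts in all 50 libraries and *Stxbp3-ps* at most 3. *Cplx4* (at most 5 counts in a library), *Syt8* (4) and *Stx11* (7) were also too low for any test, and *Vamp7* has a count but no position in the annotation and so no level per kb.

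Among calcium sensors, *Syt1*, the fast sensor of synaptic vesicles, ran from 1515 to 1786 CPM (median 1617) in the D1 IPs, 1345 to 1556 CPM (median 1484) in the D2 IPs and 944 to 1339.8 CPM (median 1186) in the inputs. *Syt11*, a synaptotagmin that binds no calcium, ran from 1191 to 1319 CPM (median 1268) in the D1 IPs, 1095 to 1404 CPM (median 1204) in the D2 IPs and 736 to 816 CPM (median 766) in the inputs. *Syt7*, a slow sensor of high affinity, lay at 241 to 299 CPM (median 277) in the D1 IPs, 213 to 268 CPM (median 238) in the D2 IPs and 221 to 345 CPM (median 284) in the inputs. The first 2 of these were the highest of their family in all 3 classes by CPM, and the IPs of both lines lay above every input for *Syt11*. *Syt2*, a fast sensor best known from hindbrain and fast-spiking terminals, was lower, at 75.1 to 126 CPM (median 103) in the D1 IPs, 72.5 to 117 CPM (median 91.3) in the D2 IPs and 38.3 to 97.5 CPM (median 62.8) in the inputs.

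What the ribosomes of MSNs carried relative to the tissue was asked by comparing each line's IPs with its inputs. Of the 71 members that could be tested here (69 among the IPs alone, where *Syt15* and *Vamp5* were too low), 21 were higher and 10 lower in the D1 IPs when both a 1.5-fold threshold and an adjusted p of 0.05 were set (edgeR quasi-likelihood test, Benjamini-Hochberg over 15404 genes), where 13.8% of all genes were higher and 29.3% lower. In the D2 IPs 16 were higher and 15 lower, against 12.8% and 30.8% of all genes. The median log2 fold change of the members was 0.28 in the D1 and 0.12 in the D2 line, and that of all genes -0.041 and -0.085. At an adjusted p alone, 40 members were higher and 18 lower in the D1 IPs (39.2% and 42.7% of all genes), and 35 and 27 in the D2 IPs (37.8% and 44.9%). The split moved with the scaling: with library size in place of TMM the median of all genes moved by -0.19 (D1) and -0.12 (D2) on the log2 scale. The counts became 14 higher and 13 lower in the D1, and 10 and 20 in the D2 line. The shares of all genes above hold under TMM, and those under library size are not given here.

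Vesicle proteins and synapsins gave the plainest group. All 3 synapsins, phosphoproteins that tether vesicles to actin, were higher in the D1 IPs, and 2 of 3 in the D2 IPs (13.8% and 12.8% of all genes). *Syn1* ran from 646 to 839 CPM (median 719) in the D1 IPs, 515 to 637 CPM (median 561) in the D2 IPs and 308 to 521 CPM (median 361) in the inputs. The D1 IPs lay above all D1 inputs, with a log2 fold change 0.97 ± 0.066 (SE), edgeR adjusted p = 6.05e-17. In the D2 line the value was 0.51 ± 0.064 (SE), adjusted p = 2.14e-09. *Syn2* had log2 fold change 0.94 ± 0.033 (SE), adjusted p = 1.89e-26 in the D1 and log2 fold change 0.73 ± 0.032 (SE), adjusted p = 3.49e-23 in the D2 line, without overlap in either. *Syn3* ran from 91.3 to 126 CPM (median 106) in the D1 IPs, 97.9 to 129.7 CPM (median 115) in the D2 IPs and 54.1 to 68.4 CPM (median 60.02) in the inputs. Its log2 fold change was 0.79 in the D1 and 0.89 in the D2 line, so it moved past the fold threshold in both, whereas *Syn1* at 0.51 in the D2 line did not. *Syp* ran from 1589.9 to 1984 CPM (median 1760.4) in the D1 IPs, 1303 to 1602 CPM (median 1379) in the D2 IPs and 698 to 965 CPM (median 851) in the inputs, with no D1 or D2 IP inside the range of the inputs. For *Syp* the log2 fold change was 1.11 ± 0.048 (SE), adjusted p = 1.76e-23 in the D1 line and log2 fold change 0.64 ± 0.046 (SE), adjusted p = 3.66e-16 in the D2 line. *Rab3a*, which brings vesicles to the release site, had log2 fold change 1.03 ± 0.035 (SE), adjusted p = 5.59e-27 in the D1 line and log2 fold change 0.76 ± 0.034 (SE), adjusted p = 5.95e-23 in the D2 line. Of the other Rab3 genes, *Rab3b* had 0.10 (adjusted p = 0.16) in the D1 and 0.31 (adjusted p = 4.6e-05) in the D2 line, and *Rab3c*, a close paralog, 0.77 (adjusted p = 2.97e-23) and 0.64 (adjusted p = 4.54e-21). Among the SV2 transporters, *Sv2a* gave 0.74 and 0.52 and *Sv2b* 0.91 and 0.045 (adjusted p = 0.768 in the D2 line). *Sv2c*, the form of the basal ganglia, gave 0.22 (adjusted p = 0.0609) and 0.69 (adjusted p = 1.46e-07). Each pair is the log2 fold change in the D1 and then the D2 line.

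The synaptotagmins split by member. Of 16 tested, 6 were higher and 2 lower in the D1 IPs (13.8% and 29.3% of all genes), and 6 higher and 3 lower in the D2 IPs (12.8% and 30.8% of all genes). *Syt12*, which binds no calcium, ran from 63.99 to 86.8 CPM (median 74.5) in the D1 IPs, 62.3 to 84.1 CPM (median 73.99) in the D2 IPs and 24.9 to 38.6 CPM (median 32.7) in the inputs, and neither line's IPs overlapped its inputs. For *Syt12* the log2 fold change was 1.15 ± 0.047 (SE), edgeR adjusted p = 2.26e-24 in the D1 line. *Syt5*, a calcium-binding member, ran from 261 to 317 CPM (median 276) in the D1 IPs, 270.1 to 345 CPM (median 291) in the D2 IPs and 113 to 149.8 CPM (median 139) in the inputs. Its log2 fold change was 1.03 ± 0.040 (SE), adjusted p = 6.51e-25 in the D1 and 1.08 ± 0.040 (SE), adjusted p = 6.07e-26 in the D2 line. *Syt3*, a high-affinity sensor, rose by 0.92 and 0.77, and *Syt4*, which traffics on dense-core vesicles, by 0.82 and 0.86, in the D1 and D2 lines. *Syt10* was lower in the D1 IPs (log2 fold change -0.67 ± 0.10 (SE), adjusted p = 8.63e-08), and its difference in the D2 line was -0.56 (adjusted p = 2.05e-06). *Syt17*, an atypical member of the family, was lower in the D2 IPs (log2 fold change -1.60 ± 0.20 (SE), adjusted p = 2.36e-09) and had 0.016 (adjusted p = 0.946) in the D1 line. *Syt15* was near the limit of detection in the IPs, with 0 to 3 counts in a D1 IP, 0 to 5 in a D2 IP and 5 to 15 in an input, so no fold is given for it.

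Complexins divided by paralog. *Cplx2* ran from 2732 to 3358 CPM (median 3024) in the D1 IPs, 2829.9 to 3380.1 CPM (median 2967) in the D2 IPs and 1280.4 to 1646 CPM (median 1509) in the inputs, with no overlap of IPs and inputs. For *Cplx2* the log2 fold change was 0.99 ± 0.038 (SE), edgeR adjusted p = 3.27e-25 in the D1 line and log2 fold change 1.03 ± 0.037 (SE), adjusted p = 3.98e-26 in the D2 line. *Cplx1*, the other complexin of the forebrain, had log2 fold change 0.13 ± 0.044 (SE), adjusted p = 0.00587 in the D1 and log2 fold change -0.23 ± 0.042 (SE), adjusted p = 5.35e-06 in the D2 line. *Cplx3*, known from ribbon synapses and deep cortical layers, was scarce, from 3.93 to 16.7 CPM (median 11.3) in the D1 IPs, 0.915 to 7.00 CPM (median 4.12) in the D2 IPs and 0.827 to 13.3 CPM (median 9.02) in the inputs. It was lower in the D2 IPs. For *Cplx3* the log2 fold change was -1.19 ± 0.28 (SE), adjusted p = 0.000199. Its value in the D1 line did not pass (log2 fold change 0.52 ± 0.29 (SE), adjusted p = 0.0929), and the lines differed by 1.71 ± 0.40 (SE, adjusted p = 0.00137).

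The members lower past both thresholds were *Snap23*, *Stx2*, *Stx3*, *Stxbp2*, *Stxbp3*, *Syt15*, *Vamp3*, *Vamp5* and *Vamp8* in both lines, *Syt10* in the D1 line, and *Cplx3*, *Rims1*, *Stx17*, *Syt13*, *Syt17* and *Vamp1* in the D2 line. *Vamp8*, an endosomal and granule VAMP, ran from 0 to 0.569 CPM (median 0.31) in the D1 IPs, 0.0833 to 0.835 CPM (median 0.255) in the D2 IPs and 1.83 to 3.53 CPM (median 2.66) in the inputs, with every IP below every input. For *Vamp8* the log2 fold change was -2.94 ± 0.26 (SE), edgeR adjusted p = 1.59e-13 in the D2 line, and in the D1 line one IP had 0 counts. *Snap23*, a SNAP-25 relative, ran from 2.12 to 3.74 CPM (median 2.55) in the D1 IPs, 1.96 to 5.19 CPM (median 3.34) in the D2 IPs and 9.17 to 11.96 CPM (median 11.3) in the inputs. For *Snap23* the log2 fold change was -2.09 ± 0.10 (SE), adjusted p = 1.96e-21 in the D1 and log2 fold change -1.75 ± 0.099 (SE), adjusted p = 1.48e-19 in the D2 line. *Stxbp3*, the Munc18c of constitutive fusion, had -2.21 and -2.17, *Stxbp2*, the Munc18 of immune and epithelial cells, -1.82 and -1.39, *Vamp3* (cellubrevin) -1.42 and -1.37, and *Stx3* -1.43 and -1.11 as log2 fold changes in the D1 and D2 lines. *Vamp5* reached at most 8 counts in a D1 IP. The 6 astrocyte markers moved with these genes: they summed to 47.4 to 95.2 CPM (median 59.1) in the D1 IPs, 38.5 to 64.6 CPM (median 46.03) in the D2 IPs and 778 to 992 CPM (median 846) in the inputs. All 6 of 6 were lower in both lines. The 6 microglia markers summed to 9.63 to 16.04 CPM (median 11.6), 13.2 to 20.4 CPM (median 16.005) and 198 to 249 CPM (median 210.0) in that order, and the 6 oligodendrocyte markers to 486 to 780.1 CPM (median 609), 410.0 to 658 CPM (median 532) and 3416 to 5316 CPM (median 4270.0). Each of these markers was likewise lower in both lines with none at 0 over a class. Their part in the members' values was not tested.

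Of the SNAREs of synaptic release, *Snap25* had log2 fold change 0.88 ± 0.071 (SE), edgeR adjusted p = 1.06e-14 in the D1 and log2 fold change 0.52 ± 0.069 (SE), adjusted p = 6.71e-09 in the D2 line. *Snap47*, a widely expressed SNAP-25 relative, ran from 375 to 447 CPM (median 416) in the D1 IPs, 312 to 400.0 CPM (median 353) in the D2 IPs and 153 to 189 CPM (median 173) in the inputs. For *Snap47* the log2 fold change was 1.29 ± 0.040 (SE), adjusted p = 1.88e-28. *Vamp2* gave 0.43 (adjusted p = 4.1e-11) and 0.24 (adjusted p = 5.08e-06) as log2 fold changes in the D1 and D2 lines. The priming and active-zone genes stayed inside the fold threshold almost throughout: of *Rims1* to *Rims4*, *Unc13a* to *Unc13c*, *Bsn* and *Pclo*, 0 passed it in the D1 line and 1 in the D2 line (*Rims1*, lower, -0.72). Past both thresholds, 13.8% of all genes were higher and 29.3% lower in the D1 line, and 12.8% and 30.8% in the D2 line. *Pclo*, the scaffold Piccolo, was lower in both. For *Pclo* the log2 fold change was -0.31 ± 0.054 (SE), adjusted p = 2.04e-06 and log2 fold change -0.25 ± 0.052 (SE), adjusted p = 4.19e-05. Another 11 members, *Rims2* and the membrane-traffic genes *Snap29*, *Stx18*, *Stx5a*, *Stx7*, *Stx8*, *Stxbp4*, *Stxbp5l*, *Stxbp6*, *Syt16* and *Vamp4*, lay between -0.52 and 0.51 (log2) in the D1 line and between -0.48 and 0.42 in the D2 line.

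**Figure D1:**
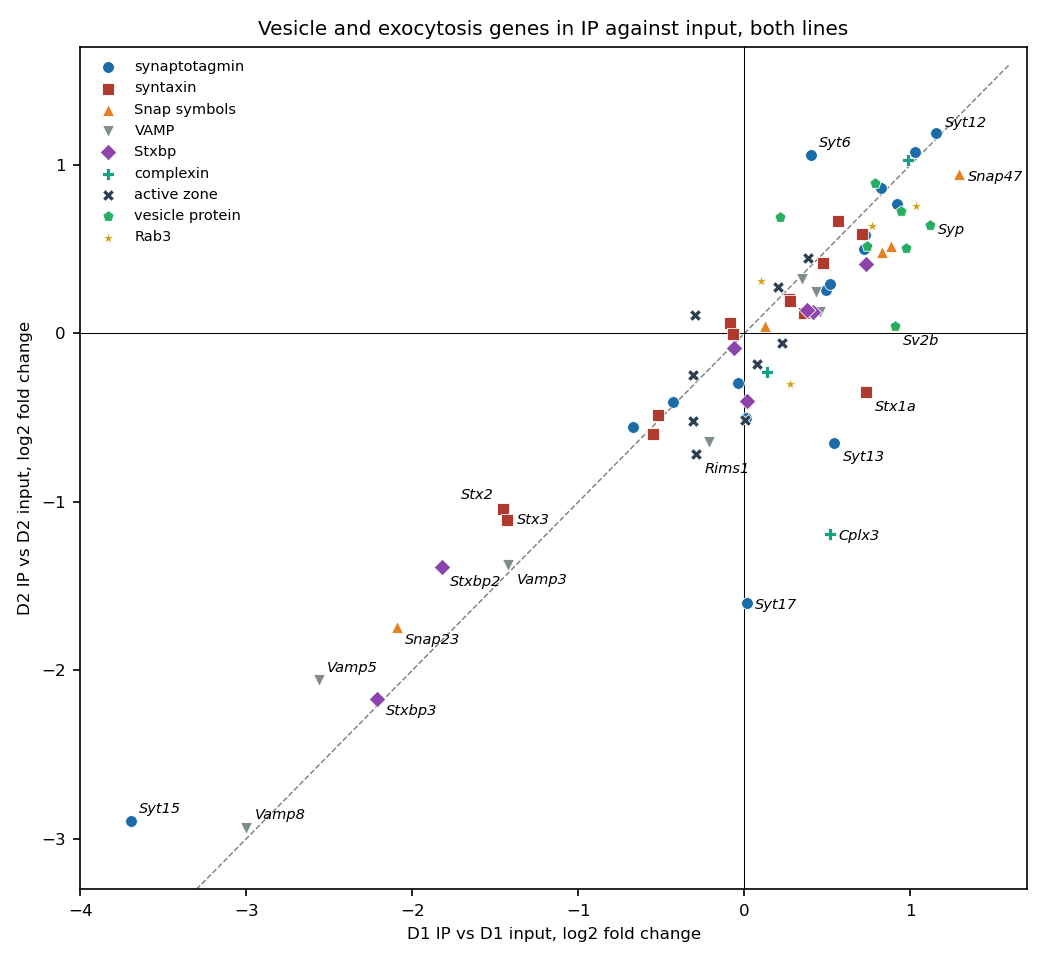
Log2 fold change of IP over input in the D1 line (x axis) and the D2 line (y axis), 1 point per tested member, coloured by family. The dashed line marks equal values, and members below it, such as *Syt13*, *Syt17* and *Cplx3*, had the larger value in the D1 line, while *Vamp8*, *Snap23* and *Stxbp3* lay below 0 in both lines and the point of *Syt15* rests on at most 3 counts per D1 IP.

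Whether the lines differed in this enrichment was tested as an interaction. At an adjusted p under 0.05, 35 members differed, 28 with a larger IP against input value in the D1 line and 7 in the D2 line, against 13.7% and 11.8% of all genes. With library size in place of TMM the split was 22 and 13, and the shares of all genes under that scaling are not given here. By the size of the difference, *Cplx3* (1.71 ± 0.40 on the log2 scale, SE, edgeR adjusted p = 0.00137), *Syt17* (1.61 ± 0.29, adjusted p = 4.7e-05) and *Syt13*, which binds no calcium (1.19 ± 0.13, adjusted p = 3.09e-09) lay on the D1 side. *Syt6*, a calcium-binding member of the group of *Syt3*, lay on the D2 side (-0.66 ± 0.071, adjusted p = 2.99e-09). *Syp* (0.47), *Snap47* (0.35), *Cplx1* (0.36) and *Rab3a* (0.28) had smaller differences with adjusted p from 6.16e-07 to 2.59e-05. Cortical markers moved in the same contrast: 6 of 6 were lower in the D2 IPs than in the D2 inputs at an adjusted p under 0.05, and 1 of 6 was higher in the D1 IPs than in the D1 inputs.

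The comparison of both cell classes asked which release genes differ between D1-MSNs and D2-MSNs. In the D1 IPs 5 of 69 tested members were higher by over 1.5-fold and 0 lower, where 4.94% of all 14224 genes were higher and 2.71% lower. At an adjusted p alone 32 were higher and 10 lower, against 19.6% and 21.3% of all genes, mostly by small amounts: the members' median log2 fold change was 0.066 and that of all genes -0.016. Between the Con IPs of the lines, compared inside the model of all IPs, 5 were higher and 0 lower past both thresholds (3.42% and 1.56% of all genes). These were again *Cplx3*, *Syt17*, *Syt13*, *Stx1a* and *Sv2b*. The inputs of both lines gave 0 members at an adjusted p under 0.05 by edgeR and by DESeq2 (0.0266% of all genes), and 3 at an unadjusted p under 0.05 (4.82% of all genes). These were *Syt10*, *Stx3* and *Syt6*, whose log2 fold changes of D1 over D2 inputs were 0.15, 0.098 and 0.096.

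Of the SNAREs, *Stx1a*, one of the plasma-membrane syntaxins that pair with SNAP-25 (chr5:135023482-135051100, plus strand, GRCm38), ran from 76.6 to 147 CPM (median 94.2) in the D1 IPs and from 40.8 to 63.9 CPM (median 54.2) in the D2 IPs. The groups did not overlap (log2 fold change 0.86 ± 0.090 (SE), edgeR adjusted p = 7.95e-09). *Snap25* was higher by 0.30 (adjusted p = 3.41e-05), *Vamp1*, the VAMP of fast-firing and brainstem neurons, by 0.33 (adjusted p = 0.00959) and *Vamp2* by 0.13 (adjusted p = 0.00216), with overlapping libraries in each. The syntaxin genes *Stx2* (-0.46), *Stx3* (-0.24), *Stx16* (-0.14) and *Stx6* (-0.11) were lower in the D1 IPs at adjusted p from 6.38e-05 to 0.0228. Of the syntaxin-binding genes, *Stxbp2* was lower in the D1 IPs. For *Stxbp2* the log2 fold change was -0.37 ± 0.063 (SE), adjusted p = 2.48e-05.

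Among the sensors, *Syt13* (chr2:92915098-92956058, plus strand) ran from 104 to 212 CPM (median 158) in the D1 and from 59.7 to 111 CPM (median 73.5) in the D2 IPs (log2 fold change 1.06 ± 0.080 (SE), edgeR adjusted p = 1.76e-11), and the ranges overlapped. In Con mice its values were 104, 177, 158 and 155 CPM in the D1 and 72.7, 65.3, 90.6, 68.8 and 59.7 CPM in the D2 IPs, with no overlap. *Syt17* (chr7:118380717-118448222, minus strand) ran from 7.7 to 33.8 CPM (median 18.1) and from 4.13 to 11.4 CPM (median 7.74), also with overlap. For *Syt17* the log2 fold change was 1.40 ± 0.16 (SE), adjusted p = 4.98e-08. *Syt6* (chr3:103575231-103645569, plus strand) went the other way, from 115 to 163 CPM (median 144) in the D1 to 182 to 232 CPM (median 223) in the D2 IPs, without overlap (log2 fold change -0.57 ± 0.046 (SE), adjusted p = 4.61e-11), a fold change of 1.49 and so just short of 1.5. *Syt9*, a sensor of limbic and dense-core release, was at 10.5 to 17.8 CPM (median 14.8) and 8.52 to 11.7 CPM (median 9.53). For *Syt9* the log2 fold change was 0.57 ± 0.069 (SE), adjusted p = 1.24e-07. *Syt1* was higher in the D1 IPs by 0.16, *Syt7* by 0.21 and *Syt11* by 0.10 on the log2 scale, with adjusted p of 5.35e-05, 0.000153 and 0.00266.

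Of the complexins, *Cplx3* (chr9:57599992-57606281, minus strand) was at 3.93 to 16.7 CPM (median 11.3) in the D1 and 0.915 to 7.00 CPM (median 4.12) in the D2 IPs (log2 fold change 1.42 ± 0.21 (SE), edgeR adjusted p = 4.49e-06), and the ranges met. In Con mice it gave 8.39, 16.4, 9.47 and 8.81 CPM in the D1 IPs and 3.32, 6.14, 5.59, 2.9 and 3.69 in the D2 IPs. D1 Con 2 thus stood apart from the other 3, and without it the log2 fold change in Con mice was 1.06 (adjusted p = 0.102) in place of 1.34. *Cplx1* was higher by 0.31 (adjusted p = 9.07e-08), whereas *Cplx2*, the main complexin, differed by 0.0054 ± 0.031 (SE, adjusted p = 0.909). Vesicle genes went the same way in part. *Sv2b* (chr7:75114894-75309262, minus strand) ran from 417 to 714 CPM (median 481) and from 227 to 369.9 CPM (median 304) without overlap (log2 fold change 0.69 ± 0.077 (SE), adjusted p = 2.8e-08). *Syn1* ran from 646 to 839 CPM (median 719) and 515 to 637 CPM (median 561), also without overlap. For *Syn1* the log2 fold change was 0.38 ± 0.035 (SE), adjusted p = 8.39e-10. *Sv2c* (chr13:95954594-96132577, minus strand) was lower in the D1 IPs, at 99.3 to 210.2 CPM (median 148) against 141 to 267 CPM (median 196) (log2 fold change -0.41 ± 0.11 (SE), adjusted p = 0.00265). *Rab3b* (chr4:108879063-108943324, plus strand) was lower too, at 39.5 to 60.3 CPM (median 51.9) against 57.2 to 85.5 CPM (median 67.6) (log2 fold change -0.36 ± 0.056 (SE), adjusted p = 6.28e-06), with overlap in both.

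Of the active-zone and priming genes, *Rims1*, the RIM that recruits calcium channels, was higher in the D1 IPs by 0.30, *Rims3* by 0.26, *Rims4* by 0.38 and *Bsn* by 0.22, with adjusted p from 0.000106 to 0.00227. *Unc13c*, the Munc13 known from cerebellar granule cells, was lower (log2 fold change -0.32 ± 0.051 (SE), edgeR adjusted p = 1.11e-05), and *Pclo* was lower by a small amount. For *Pclo* the log2 fold change was -0.12 ± 0.045 (SE), adjusted p = 0.0271. *Unc13a* had log2 fold change -0.036 ± 0.032 (SE), adjusted p = 0.387 and *Unc13b* log2 fold change 0.064 ± 0.079 (SE), adjusted p = 0.551.

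**Figure D2:**
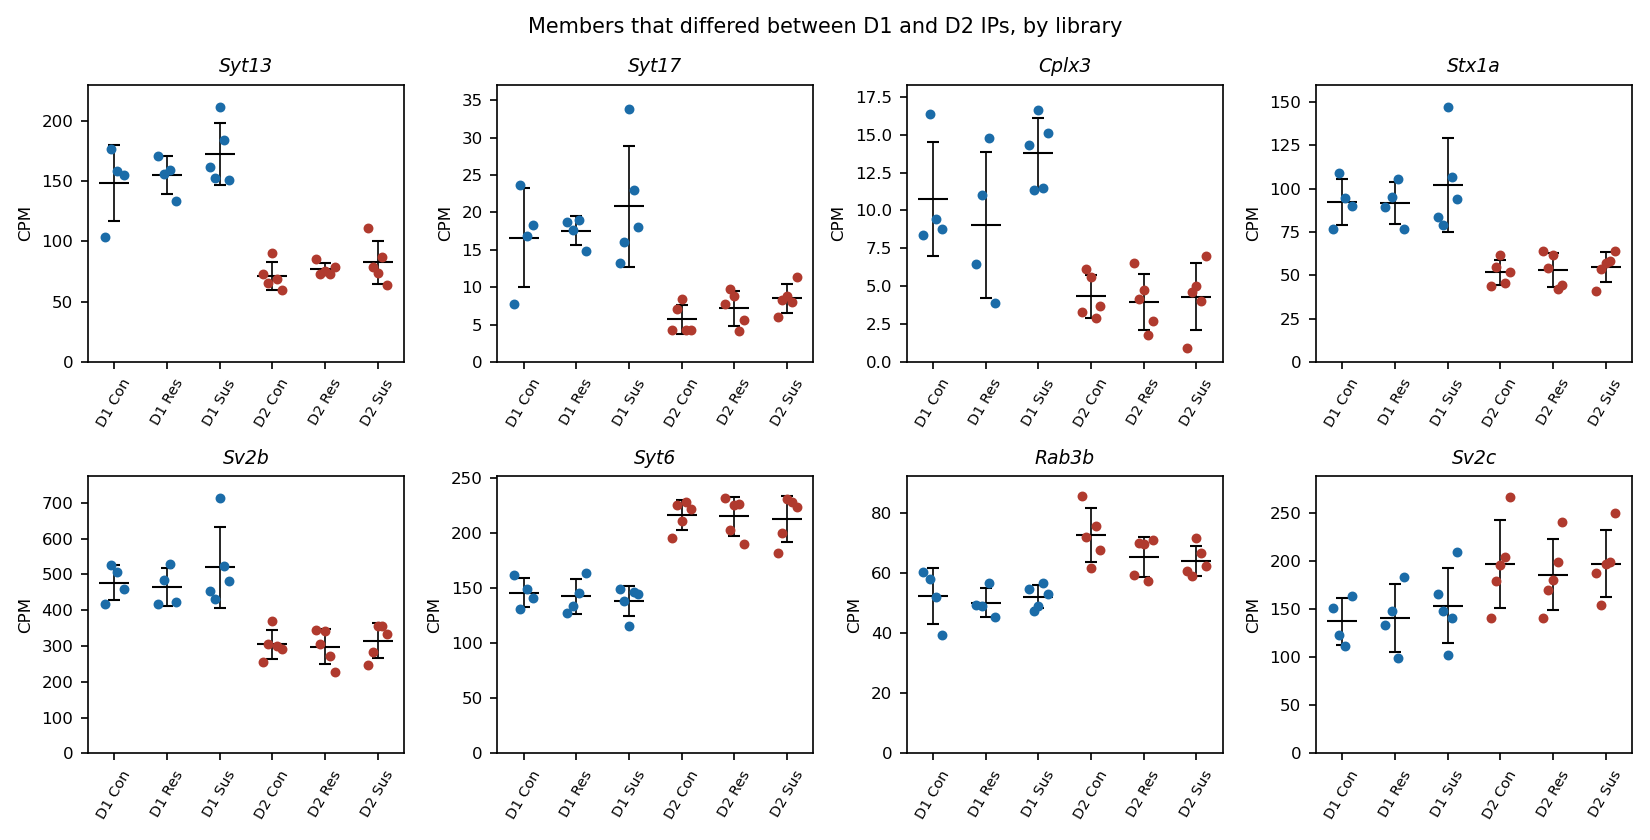
CPM of 8 members in every D1 IP (blue) and D2 IP (red) by stress group, with the mean and SD of each group as bars. *Stx1a*, *Sv2b* and *Syt6* had no library of one line inside the range of the other, and *Cplx3* shows the D1 Con library that stood apart.

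The cortical markers differed between the lines as well, so the comparison was repeated with their summed level (log2) as a covariate, a choice made after seeing the data. The 6 markers had a median log2 fold change of 1.76 between D1 and D2 IPs, with 5 of 6 past both thresholds. With the covariate 18 members were at an adjusted p under 0.05 in place of 42 (1199 genes higher and 956 lower of all 14224), and 5 passed both thresholds (582 and 232 of all genes), of which 1 (*Syt13*) was among the 5 above. *Syt13* had 1.02 ± 0.16 (SE, adjusted p = 3.62e-05), and *Syt6* -0.62 ± 0.086 (SE, adjusted p = 7.57e-06). *Stx1a* had 0.18 ± 0.090 (SE, adjusted p = 0.185), *Sv2b* 0.16 ± 0.092 (SE, adjusted p = 0.251) and *Syt17* 0.25 ± 0.20 (SE, adjusted p = 0.46) on the log2 scale, so none of the 3 was past the threshold any longer. *Cplx3* turned in sign, to -0.29 ± 0.23 (SE, adjusted p = 0.447). *Vamp1*, at 0.92 ± 0.15 (SE, adjusted p = 7.75e-05), *Rims3*, at 0.68 ± 0.084 (SE, adjusted p = 1.26e-06), *Syt9*, at 0.63 ± 0.14 (SE, adjusted p = 0.00178), and *Syt6* passed both thresholds with the covariate and not without it. The cholinergic markers moved with the members that were lower: 5 of 6 were lower in the D1 IPs past both thresholds, and their part in *Syt6*, *Sv2c* or *Rab3b* was not tested. Line and cortical level go together in these libraries, so the share of each in a value cannot be told apart by this fit.

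**Figure D3:**
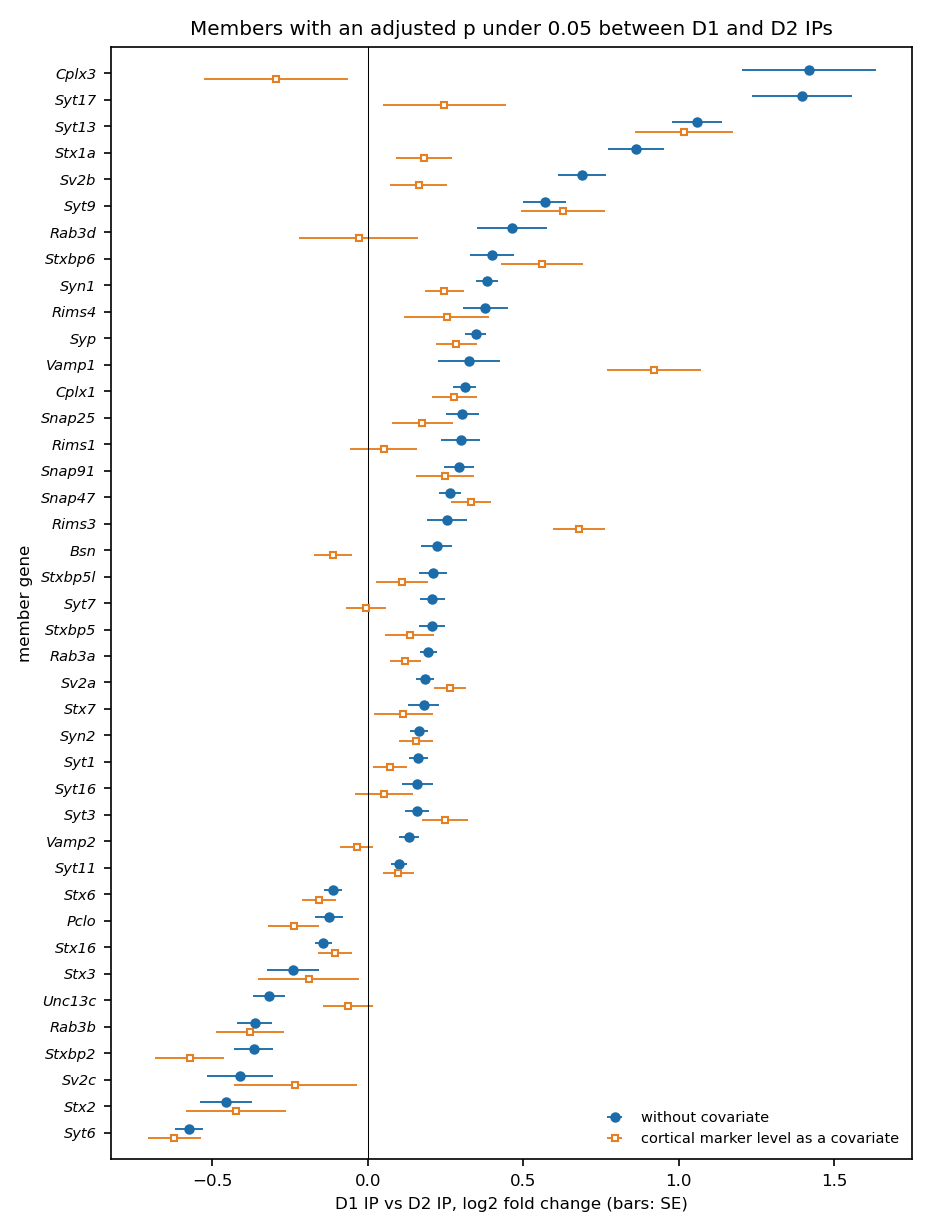
Log2 fold change of D1 IPs over D2 IPs, with SE as bars, for 41 of the 42 members at an adjusted p under 0.05, without (circles) and with (squares) the summed cortical markers as a covariate. *Syt13* and *Syt6* lie close to the same value with the covariate, whereas *Stx1a*, *Sv2b* and *Syt17* lie closer to 0 and *Cplx3* on its other side.

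The line does not vary inside the D1 IPs or inside the D2 IPs, whereas the inputs hold 9 libraries of each line. Inside each of these classes, 6 members were set against the cortical sum, in the 13 D1 IPs, 15 D2 IPs and 18 inputs. They were chosen after their values were seen and gave 18 relations (log2 CPM against log2 sum, two-sided permutation tests with 100000 resamples, for which 1e-05 is the smallest p possible, adjusted over the 18). *Stx1a* rose with the sum in every class, with Pearson's r of 0.92, 0.96 and 0.98 in D1 IPs, D2 IPs and inputs (permutation p = 1e-05, adjusted p = 2.6e-05). Spearman's rho of *Stx1a* was 0.98, 0.95 and 0.98 (permutation p = 1e-05, adjusted p = 3e-05), and without the 2 libraries farthest from the median sum r was 0.92, 0.97 and 0.98. *Sv2b* rose with it likewise, with Pearson's r of 0.88, 0.83 and 0.98 in D1 IPs, D2 IPs and inputs (permutation p = 1e-05 to 0.00015, adjusted p = 2.6e-05 to 0.00025). Spearman's rho of *Sv2b* was 0.95, 0.89 and 0.97 (permutation p = 1e-05 to 4e-05, adjusted p = 3e-05 to 9e-05), and without the 2 libraries farthest from the median sum r was 0.86, 0.87 and 0.99. *Cplx3* also rose with it, with Pearson's r of 0.74, 0.93 and 0.88 in D1 IPs, D2 IPs and inputs (permutation p = 1e-05 to 0.0036, adjusted p = 2.6e-05 to 0.0047). Spearman's rho of *Cplx3* was 0.82, 0.88 and 0.88 (permutation p = 1e-05 to 0.001, adjusted p = 3e-05 to 0.0016), and without the 2 libraries farthest from the median sum r was 0.84, 0.86 and 0.85. So did *Syt17*, with Pearson's r of 0.91, 0.73 and 0.85 in D1 IPs, D2 IPs and inputs (permutation p = 2e-05 to 0.0021, adjusted p = 4.5e-05 to 0.0032). Spearman's rho of *Syt17* was 0.86, 0.72 and 0.93 (permutation p = 1e-05 to 0.0031, adjusted p = 3e-05 to 0.0043), and without the 2 libraries farthest from the median sum r was 0.74, 0.79 and 0.89. *Syt13* rose with the sum in the D1 IPs and the inputs but gave the highest p in the D2 IPs, with Pearson's r of 0.90, -0.26 and 0.65 in D1 IPs, D2 IPs and inputs (permutation p = 0.00012 to 0.35, adjusted p = 0.00022 to 0.37). Spearman's rho of *Syt13* was 0.73, 0.04 and 0.75 (permutation p = 0.00059 to 0.89, adjusted p = 0.00097 to 0.89), and without the 2 libraries farthest from the median sum r was 0.72, 0.21 and 0.82. *Syt6* fell with the sum in the D1 IPs and rose with it in the D2 IPs (permutation p = 0.043, adjusted p = 0.048) by r, but neither held by rho, with Pearson's r of -0.76, 0.52 and 0.23 in D1 IPs, D2 IPs and inputs (permutation p = 0.0031 to 0.37, adjusted p = 0.0043 to 0.37). Spearman's rho of *Syt6* was -0.49, 0.46 and 0.14 (permutation p = 0.086 to 0.59, adjusted p = 0.099 to 0.63), and without the 2 libraries farthest from the median sum r was -0.45, 0.57 and 0.05. The libraries of a class include 3 stress groups, and the labels give no sequencing batch within which to repeat the relations.

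**Figure D4:**
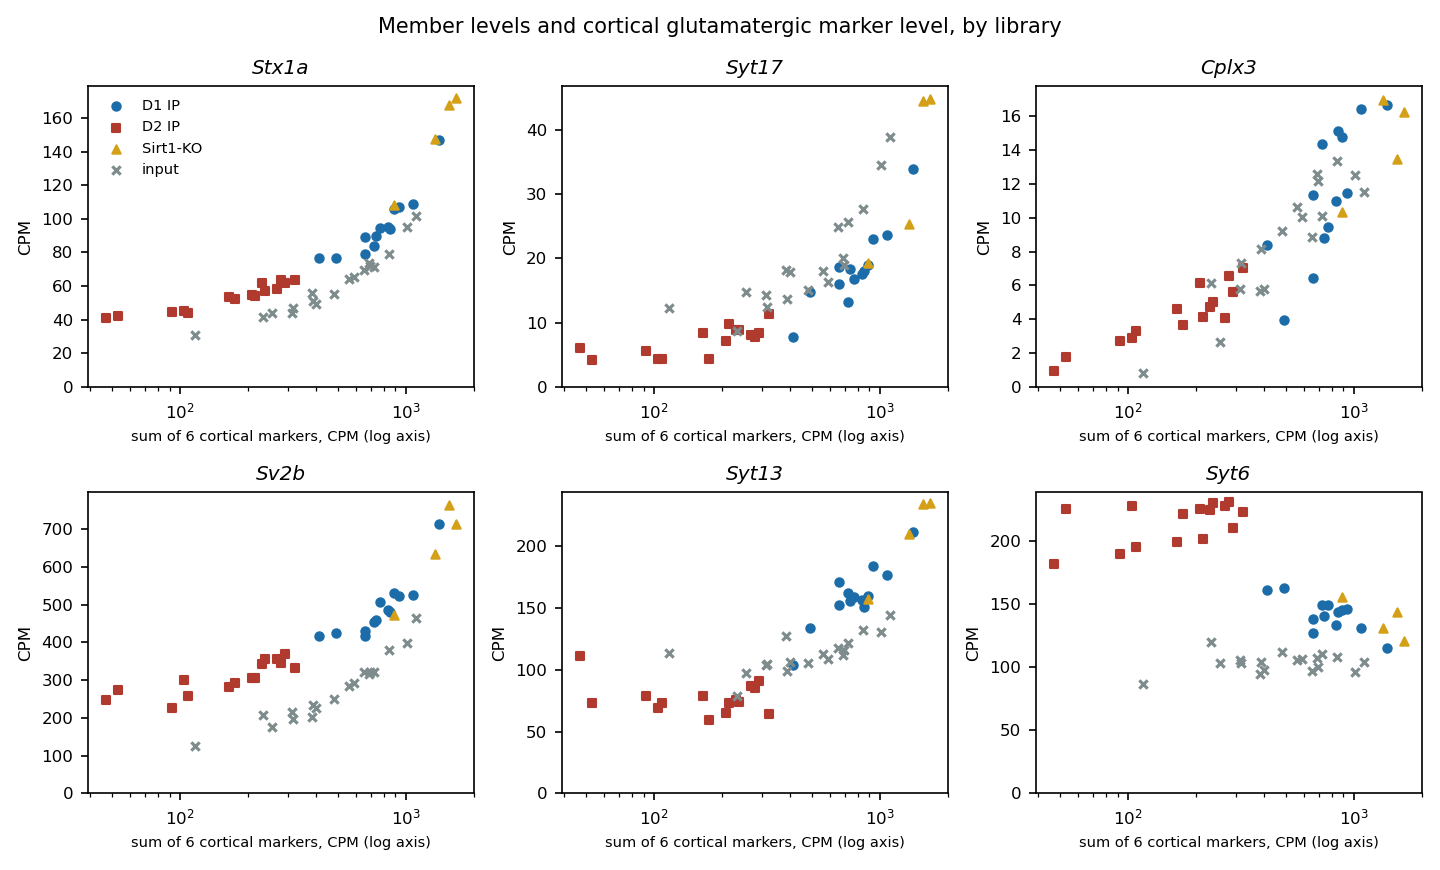
CPM of 6 members (y axis) against the summed CPM of the 6 cortical markers (x axis, log scale), 1 point per library, for D1 IPs, D2 IPs, libraries labelled Sirt1-KO and inputs. *Stx1a*, *Sv2b*, *Cplx3* and *Syt17* rise along the axis in each class, and *Syt13* lies higher in D1 IPs than in D2 IPs.

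Whether defeat changed these genes was asked by comparing Con, Res and Sus libraries within each line. At an adjusted p under 0.05, 0 members passed in any of the 6 IP comparisons, by edgeR or by DESeq2, and 0 to 0.00703% of all genes did, so the counts that follow are at an unadjusted p under 0.05. In D1-MSNs, 5 members were higher and 1 lower in Sus than in Con (2.5% and 2.84% of all genes), and 0 differed between Res and Con by edgeR or DESeq2 (2.11% of all genes). Sus and Res differed in 3 higher and 1 lower members (1.93% and 2.3%), and both comparisons share the 5 Sus libraries.

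Of the 5 D1 members that were higher in Sus, 4 encode proteins of the active zone and of priming, and *Syn1* is a synapsin. Among the other RIM and Munc13 genes, *Unc13a* and *Rims4* had log2 fold changes of 0.11 and 0.043. *Rims2*, *Rims3* and *Unc13c* had -0.013, -0.043 and -0.085, and none of these was called (edgeR, unadjusted p from 0.0557 to 0.808). *Bsn* read 432, 490.2, 419.8 and 435 CPM in Con, 443, 509, 473 and 435 in Res and 500.4, 450.0, 577, 507 and 518 in Sus libraries. For *Bsn* the log2 fold change was 0.20 ± 0.087 (SE), unadjusted p = 0.0267, adjusted p = 0.846 against Con, edgeR. *Rims1* read 64.2, 76.5, 74.02 and 79.2 CPM in Con, 73.1, 74.9, 74.2 and 74.5 in Res and 82.1, 76.2, 92.1, 87.9 and 97.1 in Sus libraries. For *Rims1* the log2 fold change was 0.25 ± 0.11 (SE), unadjusted p = 0.0325, adjusted p = 0.846. *Unc13b*, a Munc13 that primes vesicles, read 17.2, 21.1, 19.8 and 17.7 CPM in Con, 17.01, 21.3, 19.7 and 16.8 in Res and 21.98, 20.6, 27.6, 22.7 and 23.6 in Sus libraries. For *Unc13b* the log2 fold change was 0.30 ± 0.14 (SE), unadjusted p = 0.0403, adjusted p = 0.846. For each of the 3, 4 of the 5 Sus libraries lay above every Con library and the groups overlapped in the fifth. *Pclo* read 349.8, 343, 325 and 344 CPM in Con, 303, 367, 323 and 338 in Res and 390.2, 361, 369, 363 and 421 in Sus libraries (log2 fold change 0.16 ± 0.079 (SE), unadjusted p = 0.0457, adjusted p = 0.846). It was the one of the 6 called members whose Con and Sus libraries did not overlap. *Syn1* had log2 fold change 0.13 ± 0.063 (SE), unadjusted p = 0.0466, adjusted p = 0.846. *Syt12* read 86.8, 76.99, 74.5 and 71.8 CPM in Con, 74.9, 74.97, 76.2 and 76.8 in Res and 72.8, 67.5, 71.2, 71.7 and 63.99 in Sus libraries, and was the single member that was lower. For *Syt12* the log2 fold change was -0.15 ± 0.057 (SE), unadjusted p = 0.0116, adjusted p = 0.846. Against Res, *Pclo* (0.19, unadjusted p = 0.0199), *Unc13b* (0.32, unadjusted p = 0.0314), *Rims1* (0.23, unadjusted p = 0.0442) and *Syt12* (-0.12, unadjusted p = 0.0385) were called again, with the Sus libraries in common (edgeR, adjusted p = 0.999). Sus and Res did not overlap for *Rims1* and *Syt12*. The cortical sums of the Sus IPs were 663 to 1412 CPM (median 856) against 412 to 1082 CPM (median 753) in Con and 490.0 to 892 CPM (median 751) in Res. At the level of single genes, 0 of the 6 cortical markers differed between Sus and Con at an unadjusted p under 0.05, whereas 5 of the 10 MSN markers were lower in Sus at that threshold and 0 at an adjusted p. Their part was not tested. With the cortical level as a covariate 3 members were called in Sus against Con at that threshold (420 genes higher and 443 lower of 14224), *Bsn*, *Rims1* and *Syt12*. *Pclo* (0.15, unadjusted p = 0.0628), *Unc13b* (0.26, unadjusted p = 0.0539) and *Syn1* (0.11, unadjusted p = 0.0633) then lay short of it (edgeR, adjusted p = 0.768). With the covariate 4 members were called in Sus against Res (282 genes higher and 364 lower of 14224), *Pclo*, *Unc13b*, *Syt12* and *Cplx3*, the last at 0.42 (unadjusted p = 0.0381), whereas *Rims1* had 0.19 (unadjusted p = 0.0643), with an edgeR adjusted p = 0.999 for each. Without D1 Con 1, D1 Con 3 or D1 Sus 5 the count was 1, 3 or 2. Against Res it was 0 without D1 Res 1, 2 without D1 Res 4 and 2 without D1 Sus 5.

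In D2-MSNs, 2 members were higher and 3 lower in Sus than in Con (2.07% and 1.6% of all genes), 0 higher and 2 lower in Res (1.57% and 1.46%), and 0 differed between Sus and Res by edgeR or DESeq2 (1.66% of all genes). With library size in place of TMM the splits were 3 and 0, and 1 and 1, and the shares of all genes under that scaling are not given here. *Syt11* and *Syt12*, synaptotagmins that bind no calcium, were lower in both defeated groups, which share the Con libraries. *Syt11* read 1404, 1204, 1222, 1239 and 1248 CPM in Con, 1134, 1179.6, 1216, 1143 and 1095 in Res and 1215, 1129.5, 1189, 1225 and 1119 in Sus libraries. For *Syt11* the log2 fold change was -0.096 ± 0.043 (SE), unadjusted p = 0.034, adjusted p = 0.999 in Sus and log2 fold change -0.13 ± 0.043 (SE), unadjusted p = 0.00636, adjusted p = 1 in Res, edgeR. *Syt12* read 77.9, 81.05, 71.2, 84.1 and 77.5 CPM in Con, 67.6, 70.6, 74.7, 73.99 and 62.3 in Res and 67.6, 68.7, 75.02, 74.6 and 72.7 in Sus libraries. For *Syt12* the log2 fold change was -0.12 ± 0.054 (SE), unadjusted p = 0.0341, adjusted p = 0.999 in Sus and log2 fold change -0.16 ± 0.054 (SE), unadjusted p = 0.00552, adjusted p = 1 in Res. The groups overlapped for both, and D2 Con 1 carried the highest *Syt11* value. Without it *Syt11* had -0.061 in Sus, no longer past the threshold, and -0.092 in Res. *Stx6*, a Golgi and endosome syntaxin, had log2 fold change -0.12 ± 0.047 (SE), unadjusted p = 0.0129, adjusted p = 0.999 in Sus. *Snap23* (log2 fold change 0.46 ± 0.20 (SE), unadjusted p = 0.0271, adjusted p = 0.999) and *Syt17* (log2 fold change 0.58 ± 0.28 (SE), unadjusted p = 0.0485, adjusted p = 0.999) were higher in Sus. The count in Sus against Con was 2 without D2 Con 1, 8 without D2 Con 3, 3 without D2 Con 4 and 1 without D2 Sus 2, and that in Res against Con was 4 without D2 Con 2. *Syt12* was thus lower than in Con in the Sus IPs of both lines at an unadjusted p. The change from Con to Sus differed between the lines in 0 members at an adjusted p under 0.05, and in 0 at an unadjusted p under 0.05, by edgeR, and in 0 by DESeq2 (0% and 1.82% of all genes by edgeR).

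In the inputs, with line as a covariate, 2 members were higher and 2 lower in Sus than in Con (2.66% and 1.82% of all genes at an unadjusted p under 0.05), 1 and 2 in Res (1.48% and 1.75%), and 0 between Sus and Res (5.54% of all genes). There were 0 at an adjusted p under 0.05 by edgeR and DESeq2 (0% of all genes). With library size in place of TMM the splits were 0 and 9, and 0 and 4, and the shares of all genes under that scaling are not given here. *Stx6* ran from 59.1 to 65.9 CPM (median 59.96) in Con, 52.7 to 60.4 CPM (median 57.6) in Res and 52.3 to 60.5 CPM (median 57.5) in Sus inputs. For *Stx6* the log2 fold change was -0.11 ± 0.049 (SE), unadjusted p = 0.0394, adjusted p = 0.979 in Sus, and log2 fold change -0.11 ± 0.049 (SE), unadjusted p = 0.0429, adjusted p = 0.999 in Res. *Syt14* had log2 fold change 0.13 ± 0.054 (SE), unadjusted p = 0.0229, adjusted p = 0.979 and *Snap23* log2 fold change -0.14 ± 0.064 (SE), unadjusted p = 0.0403, adjusted p = 0.979 in Sus. In Res *Stxbp3* had log2 fold change -0.16 ± 0.057 (SE), unadjusted p = 0.0133, adjusted p = 0.999. The groups overlapped for each of these, and *Stx6* was the member lower in Sus in both the D2 IPs and the inputs. The count in Sus was 1 without D1 Sus 2, 2 without D1 Sus 3 and 7 without D2 Res 3, and that in Res was 1 without D1 Con 1 or D2 Res 3. Sus and Res differed in 7 members without D2 Sus 3 and in 4 without D2 Res 3.

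The libraries labelled Sirt1-KO, after the deacetylase Sirt1, were compared with the D1 Con IPs, both without defeat. The labels give no sequencing batch, and no age for the Sirt1-KO mice. An effect of the genotype and a difference between cohorts therefore cannot be told apart here. *Sirt1* itself read 15.9, 16.8, 13.7 and 10.6 CPM in the 4 libraries labelled Sirt1-KO and 13.99, 17.1, 15.6 and 14.9 in the 4 D1 Con IPs. For *Sirt1* the log2 fold change was -0.096 ± 0.13 (SE), edgeR adjusted p = 0.768. A count over the whole gene does not show whether floxed exons are missing, so it does not check the label. Of 68 tested members (*Vamp8* was too low as well) 1 was higher by over 1.5-fold and 0 lower (0.279% and 0.47% of all 13626 genes), and 3 were higher and 0 lower at an adjusted p alone (0.616% and 1.04%). At an unadjusted p under 0.05 there were 18 higher and 8 lower members (9.15% and 8.11%).

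*Stx1a* read 147, 168, 172 and 108 CPM in the libraries labelled Sirt1-KO and 76.6, 109, 94.5 and 89.8 in the D1 Con IPs, and the groups overlapped. For *Stx1a* the log2 fold change was 0.70 ± 0.14 (SE), edgeR adjusted p = 0.0376. *Bsn* read 563, 608, 616 and 523 CPM in the libraries labelled Sirt1-KO and 432, 490.2, 419.8 and 435 in the D1 Con IPs, with no overlap. For *Bsn* the log2 fold change was 0.39 ± 0.073 (SE), adjusted p = 0.0284. *Rims1* read 89.7, 103, 92.7 and 94.3 CPM in the libraries labelled Sirt1-KO and 64.2, 76.5, 74.02 and 79.2 in the D1 Con IPs, also with no overlap. For *Rims1* the log2 fold change was 0.38 ± 0.080 (SE), adjusted p = 0.0395. *Syp* had 0.31 at an adjusted p of 0.0585, without overlap, and did not pass the threshold. Other cell markers moved too. The cortical sum was 891 to 1680.2 CPM (median 1447) in the libraries labelled Sirt1-KO and 412 to 1082 CPM (median 753) in the D1 Con IPs, with 5 of 6 markers higher at an unadjusted p under 0.05. The 10 MSN markers summed to 5464 to 8049 CPM (median 6056) and 7569 to 10458 CPM (median 7728), with 8 of 10 lower at an unadjusted p under 0.05 and 1 at an adjusted p. With the cortical level as a covariate 0 members passed at an adjusted p under 0.05 (12 genes higher and 22 lower of all 13626). *Stx1a* then had 0.22 ± 0.090 (SE, adjusted p = 0.316), *Bsn* 0.22 ± 0.076 (SE, adjusted p = 0.241) and *Rims1* 0.23 ± 0.096 (SE, adjusted p = 0.329). Label and cortical level largely go together in these libraries, so the share of each in a value cannot be told apart by this fit. The call of *Stx1a* at both thresholds was lost without any one of D1 Con 1, 3 or 4 or Sirt1-KO 1, 3 or 4, and 4 members passed without Sirt1-KO 5. DESeq2 called 14 members at an adjusted p alone, in place of 3, and its share of all genes is not given here.

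**Figure D5:**
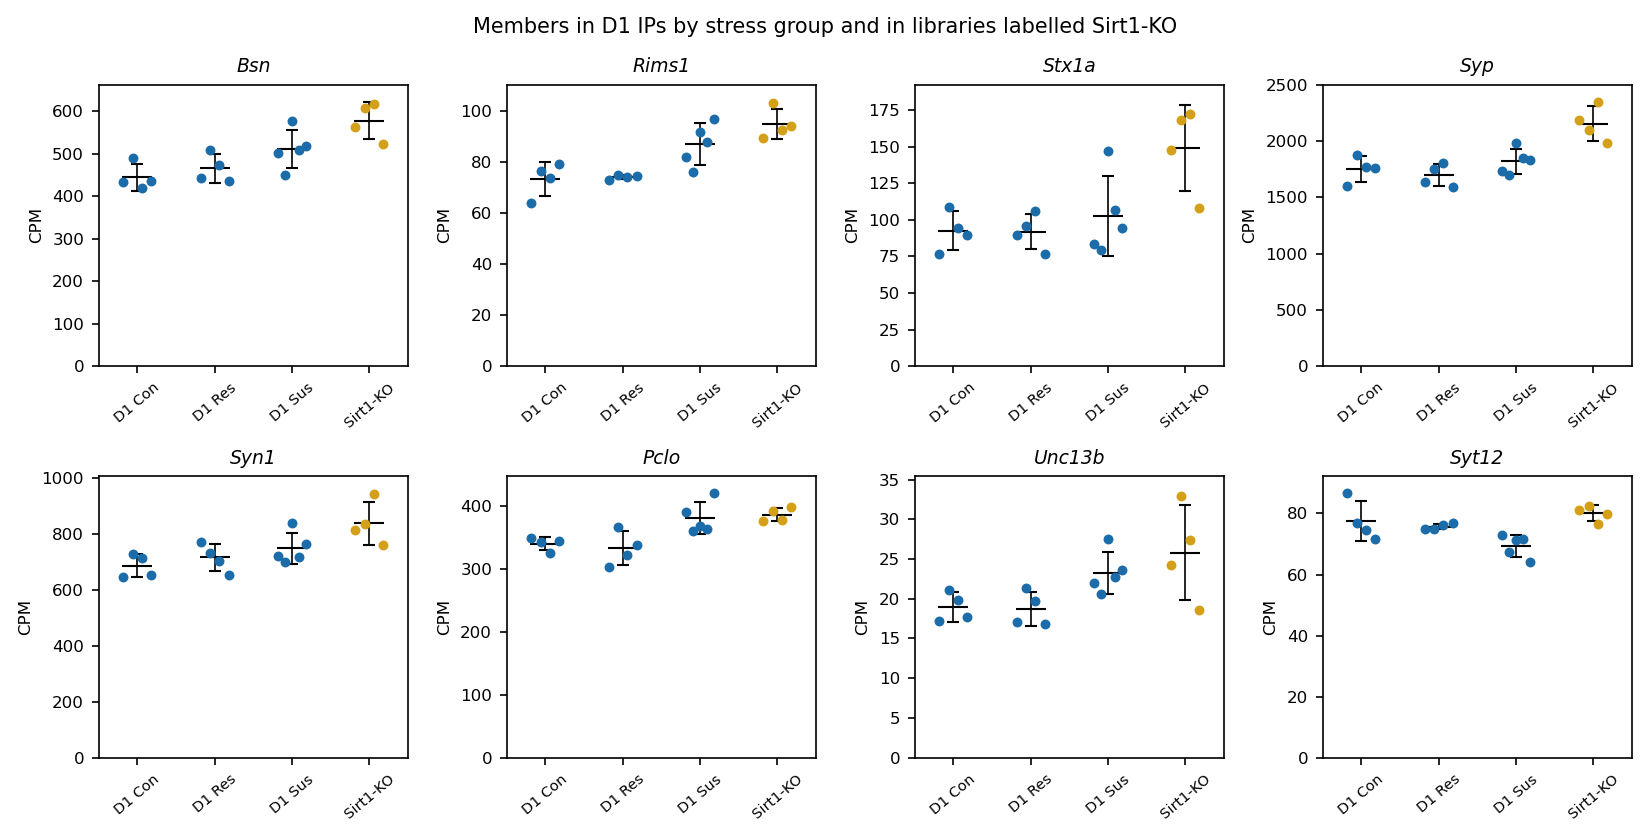
CPM of 8 members in every D1 IP by stress group and in the 4 libraries labelled Sirt1-KO, with the mean and SD of each group as bars. *Bsn* and *Rims1* have their 4 Sirt1-KO points above the D1 Con points, and the Sus points of most panels overlap those of Con or Res.

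A list of 61 other genes of the vesicle cycle covered docking, filling and retrieval, of which 58 were tested between the IPs of the lines and 58 against inputs. Against inputs, 21 were higher and 8 lower in the D1 line past both thresholds, and 11 and 12 in the D2 line, with median log2 fold changes of 0.53 and 0.20. Of all genes 13.8% were higher and 29.3% lower in the D1, and 12.8% and 30.8% in the D2 line. *Slc32a1*, the vesicular GABA transporter that fills MSN vesicles, rose by 0.99 in the D1 and 1.20 in the D2 line. *Svop*, a vesicle transporter-like protein, rose by 1.04 and 0.95, and *Nsf*, the ATPase that takes SNARE complexes apart, by 0.88 and 0.63. *Dnm2*, the dynamin of all cells, fell by 1.18 and 0.91 on the log2 scale. Adjusted p was under 0.05 for each of these in both lines.

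Between D1 and D2 IPs, 4 of that list were higher and 1 lower past both thresholds, and 28 and 12 at an adjusted p alone, with a median log2 fold change of 0.095 (4.94% and 2.71%, and 19.6% and 21.3%, of all genes). *Cadps2*, which primes dense-core vesicles (1.25 ± 0.11, adjusted p = 4.49e-10, edgeR), *Doc2a*, a calcium sensor of spontaneous release (1.13 ± 0.10, adjusted p = 3.98e-10), and *Rph3a*, the Rab3 effector rabphilin (0.68 ± 0.047, adjusted p = 3.34e-12), were higher in the D1 IPs. Against inputs their log2 fold changes were 0.62, 0.60 and 0.58 in the D1 line and -0.88, -0.70 and -0.19 in the D2 line. The cortical sum was also higher in the D1 than in the D2 IPs, and values of these genes with it as a covariate are not given here. *Slc17a8*, the vesicular glutamate transporter of cholinergic interneurons, was lower (-1.09 ± 0.12, adjusted p = 1.62e-08), in the same libraries in which the cholinergic markers were lower. In the libraries labelled Sirt1-KO, 3 were higher and 1 lower at an adjusted p under 0.05 (0.616% and 1.04% of all genes). *Rab27b*, a Rab of secretory granules, was the one that was lower (-0.36 ± 0.063, adjusted p = 0.0206), and *Erc1*, *Dnm1* and *Amph* were higher by 0.31, 0.27 and 0.32. The cortical sum had a higher median in these libraries than in the D1 Con IPs, and values of these genes with it as a covariate are not given here. Between D1 Sus and D1 Con, 4 were higher and 1 lower at an unadjusted p under 0.05 (2.5% and 2.84% of all genes), and 0 passed at an adjusted p by edgeR.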

How the data were processed

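RNA was sequenced from NAc ribosomes precipitated from D1-Cre and D2-Cre mice with the RT allele, from homogenate inputs, and from the libraries labelled Sirt1-KO. Per the labels and the methods, the authors trimmed reads with cutadapt, aligned them to mm10 with STAR and counted them per gene with HTSeq; the deposited values are raw counts, with versions, annotation and strand setting not given in the sources used here. Entries that name no gene took 18.02 to 28.27% of an IP, 35.89 to 39.99% of an input and 19.18 to 23.79% of a library labelled Sirt1-KO, and were left out of all sums. The 2 columns that belong to no sample of the series were not used. The 4 D1 Con IPs stand in both count tables with identical values and were counted once. No pair of replicates agreed within sampling noise.

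Counts were filtered (edgeR 4.0.16 filterByExpr in R 4.3.3, minimum count 10 and minimum total 15), TMM-scaled and tested by edgeR's quasi-likelihood test (two-sided). There was 1 model of IPs and inputs, 1 of the IPs and 1 of the libraries labelled Sirt1-KO with the D1 Con IPs. The inputs alone had 1 model by line and stress group, for the comparison of lines, and 1 by stress group with line as a covariate. Adjusted p-values are Benjamini-Hochberg over all tested genes. Comparisons of fractions, lines and genotype were called at a threshold of 1.5-fold together with an adjusted p of 0.05, stress comparisons at an unadjusted p under 0.05, and differences of changes at an adjusted p under 0.05. CPM were computed over all 50 libraries together. Alternatives were DESeq2 1.42.0, library size in place of TMM, other filters, the replicate number as a block, only the libraries compared, each library left out, and the cortical marker level, which was added after seeing the data. Scripts were tested on simulated counts. Positions are GENCODE vM21 on GRCm38, and promoter sequences RefSeq GRCm38.p6.

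The members and lists were chosen with earlier results of these data known. Members named are the 10 most changed per direction and comparison past the threshold, the 8 with the lowest p per direction in stress comparisons, the 8 with the lowest adjusted p for differences of changes, the core member of each family, the 5 highest per class and those with at most 3 counts. A member shown outside this rule was chosen after its values were seen. Each library pools 2 mice, and depth limits members of a few counts. Some genes of these lists are not reported here by name.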

Additional observations from a re-analysis of the deposited data

Results flagged for a closer look

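*Cplx3* read 16.4 CPM in D1 Con 2, against 8.39 to 9.47 CPM in the other 3 D1 Con IPs, and *Syt11* read 1404 CPM in D2 Con 1, against 1204 to 1248 CPM in the other 4 D2 Con IPs. Each library lay farther from its group than Dixon's 95% criterion allows. These were 2 of 38 sets of a member and a group tested, where chance flags about 1 in 20.

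The IP against input change differed between the lines in 35 members by the interaction test (edgeR, adjusted p under 0.05). Among those with the lowest adjusted p were *Syt6* (-0.66), *Syt13* (1.19), *Syp* (0.47), *Snap47* (0.35), *Cplx1* (0.36), *Rab3a* (0.28) and *Syt17* (1.61), given as D1 minus D2 difference of log2 fold changes.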

How the results depend on the processing

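Counts of members called are compared here with those of the report. Shares of all genes under these settings are not printed in this section, so the counts are not read as results about the members. The cause of each shift was not tested, beyond fewer samples or another threshold. With the fold threshold dropped, the counts were 58 for D1 IP against input, 62 for D2 IP against input, 42 for D1 against D2 IPs, 23 in Con mice and 3 for Sirt1-KO. With an adjusted p in place of the unadjusted one, they were 0 in D1 Sus and D2 Sus against Con, D1 Sus against Res, D2 Res against Con, and input Sus and Res against Con. The line difference of IP against input had 10 in control libraries only. With library size in place of TMM the counts were 3 for D2 Sus against Con, 1 for D2 Sus against Res, 9 for input Sus against Con and 1 for input Sus against Res. With no filter input Sus against Con had 7. With only the libraries compared, D1 Sus against Res had 7 and D2 Sus against Res 1. With the cortical covariate, D1 Sus against Con had 3 and Sirt1-KO 0, and *Cplx3* turned to -0.29 between D1 and D2 IPs and to -0.34 in Con mice.

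Replicate numbers were tried as a block. Deviations of IPs and inputs of the same number correlated from -0.192 to 0.505 (median 0.0293, over 0.1 in 3 of 18), those of same-numbered IPs from -0.157 to 0.248 (over 0.1 in 17 of 66) and those of Sirt1-KO and Con libraries from -0.0224 to 0.0385 (0 of 3). Inputs were kept from homogenates used for IPs, but whether the same number marks the same mice was not stated, and the correlations do not settle it. With line, stress group and number together as a replicate block, IP against input gave 33 members in the D1 and 32 in the D2 line, of which 31 and 29 were among those of the report, and the line difference 32, of which 29. Elsewhere the replicate block gave 7 members for D1 Sus against Res, 1 for D2 Sus against Res, 1 for input Sus against Res and 8 for Sirt1-KO, and 24 at an adjusted p alone.

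Without 1 library the counts ran from 31 to 32 for D1 and 28 to 31 for D2 IP against input, 30 to 38 for the line difference, 5 to 7 for D1 against D2 IPs, 4 to 7 in Con mice, 1 to 8 for D1 Sus against Con, 0 to 1 for D1 Res against Con, 0 to 5 for D1 Sus against Res, 1 to 8 for D2 Sus against Con, 2 to 4 for D2 Res against Con, 0 to 2 for D2 Sus against Res, 1 to 7 for input Sus against Con, 1 to 4 for input Res against Con, 0 to 7 for input Sus against Res and 0 to 4 for Sirt1-KO. For single members, 83 results gave 3688 values over the settings, of which 3540 had the direction and side of the threshold given in the report, 146 lost the threshold and 2 reversed. Of these values, 3098 came from fits without 1 library. With the cortical covariate, 15 of 28 kept the direction and side of the threshold, 11 lost the threshold and 2 reversed. Members of a few counts per library are limited by depth.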
